A study of Mus musculus with 18 samples.

Results

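Carboxylesterases of the mouse Ces gene family were described in liver and epididymal fat of male C57BL/6J mice kept on 3 diets. The 10 genes were Ces1b, Ces1c, Ces1d, Ces1e, Ces1f, Ces1g, Ces2a, Ces2c, Ces3a and Ces3b, taken by symbol from the 23474 genes of the deposited expression table. They were chosen by name among its 19 carboxylesterase genes, with the levels and diet differences of these same libraries already known and no stated cutoff, so their levels, and the counts of those called, are given as description and support nothing beyond themselves. The study fed mice a high-fat diet holding 0.25% by weight of an ethanol extract of green tea (GT), the high-fat diet alone (HFD) or a normal diet (ND), and sequenced polyadenylated RNA. Feeding began at 5 weeks of age and lasted 12 weeks, to an age of 17 weeks, in individually housed animals with no labelled genetic modification. The extract was given only on top of the high-fat diet, so GT and ND differ in both fat and extract. Each of the 6 combinations of tissue and diet had 3 libraries, 18 in all. Nothing in the labels ties the 3 libraries of a group to 3 different animals; p-values therefore reflect only the spread between these libraries, and that spread may be technical.

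Carboxylesterases are serine hydrolases, most of them held in the lumen of the endoplasmic reticulum, that split ester, amide and carbamate bonds in drugs, environmental chemicals and lipids. In mouse liver several also act on stored neutral lipid: Ces1d, known as triacylglycerol hydrolase, releases fatty acids from triacylglycerol stores that are used for assembly of very-low-density lipoprotein (VLDL), and it is also made by adipocytes. Rodents carry many tandem copies of genes for which humans have few.

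All 10 genes lie on chromosome 8 in the RefSeq annotation of GRCm38.p6, in 2 runs of neighbouring genes. Ces1b to Ces1g follow one another in alphabetical order between Ces1a and Ces1h, and Ces2a, Ces2c, Ces3a and Ces3b lie in a second run from Ces2a to Ces4a. Copies this alike can compete for reads, and the sources used here do not give how the authors' counting shared such reads. Of the 50-base windows of Ces2c transcripts, 42.2% also occurred in another gene, 38.2% in the pseudogene Ces2d-ps. For Ces3a the share was 30.9% and for Ces3b 26.1%, each with the other. It was 22.2% for Ces2a (20.9% with the predicted gene Gm7208), 17.0% for Ces1c and 11.6% for Ces1b. The other 4 genes shared between 1.28% (Ces1d) and 3.21% (Ces1e), so the split of reads is least certain for Ces2c and the Ces3 pair.

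RefSeq promoter sequence was at hand for 7 of the 10 genes, not for Ces1d, Ces1f and Ces3a. The 250 bases before the start are shown for Ces1b and Ces1c because this pair shares the longest run among the 21 pairs of promoters, 58 identical bases (capitals), and Ces1b but not Ces1c was called in liver below; the next longest run in any pair had 11 bases. The run ends 38 bases before the start of Ces1b and 126 bases before that of Ces1c. Ces1b is at chr8:93080018-93080267 and Ces1c at chr8:93131284-93131533, both on the minus strand of GRCm38.p6 and written 5′ to 3′ along the gene.
Ces1b: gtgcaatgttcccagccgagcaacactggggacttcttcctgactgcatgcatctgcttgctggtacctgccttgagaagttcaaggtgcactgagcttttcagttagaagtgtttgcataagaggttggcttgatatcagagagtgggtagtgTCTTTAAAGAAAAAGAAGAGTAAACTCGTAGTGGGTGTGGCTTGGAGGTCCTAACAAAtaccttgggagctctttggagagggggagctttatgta
Ces1c: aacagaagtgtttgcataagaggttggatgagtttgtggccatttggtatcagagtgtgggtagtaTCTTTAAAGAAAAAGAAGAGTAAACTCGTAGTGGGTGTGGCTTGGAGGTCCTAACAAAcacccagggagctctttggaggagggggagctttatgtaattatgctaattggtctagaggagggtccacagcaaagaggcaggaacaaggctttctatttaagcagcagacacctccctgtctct

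The promoters of Ces1g, Ces2a and Ces3b are shown because these genes were called in liver below. Capitals mark matches on either strand to the CCAAT box (CCAAT or ATTGG) and the TATA box (TATAAA or TTTATA), which do not overlap here. Ces1g is at chr8:93337210-93337459 on the minus strand, Ces2a at chr8:104733753-104734002 and Ces3b at chr8:105083505-105083754 on the plus strand, all from RefSeq on GRCm38.p6.
Ces1g: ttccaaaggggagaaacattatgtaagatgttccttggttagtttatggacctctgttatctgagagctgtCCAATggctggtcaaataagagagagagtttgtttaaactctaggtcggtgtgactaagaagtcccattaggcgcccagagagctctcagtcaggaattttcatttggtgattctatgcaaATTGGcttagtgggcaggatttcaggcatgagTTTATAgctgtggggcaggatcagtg
Ces2a: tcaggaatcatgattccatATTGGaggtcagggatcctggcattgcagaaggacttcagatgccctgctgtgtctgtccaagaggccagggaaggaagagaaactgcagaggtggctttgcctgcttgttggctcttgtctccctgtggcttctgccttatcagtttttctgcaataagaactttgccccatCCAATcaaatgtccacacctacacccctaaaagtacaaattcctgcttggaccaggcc
Ces3b: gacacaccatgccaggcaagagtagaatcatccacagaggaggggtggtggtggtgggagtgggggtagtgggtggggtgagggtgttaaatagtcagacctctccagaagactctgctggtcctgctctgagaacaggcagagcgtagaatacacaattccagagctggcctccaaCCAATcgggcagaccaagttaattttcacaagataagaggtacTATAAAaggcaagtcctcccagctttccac
CCAAT matches were found in 5 of the 7 promoters and in 33.8% of 32851 promoters of the same length. TATAAA matches were found in Ces1g and Ces3b, 2 of 7, against 12.4% of all promoters. The half-site AGGTCA (or TGACCT), a letter string bound by many nuclear receptors, occurred in Ces2a alone, 1 of 7, against 14.0% of all. Ces3b has its TATAAA match on the gene strand, starting 30 bases before the start, and Ces1g has its own on the other strand. These are matches of letters in one window.

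Values were fragments scaled to transcript length and to each library's mapped fragments (FPKM), which summed to 680168 to 930139 per liver library and 527904 to 608819 in 8 fat libraries. Fat ND 1 summed to 1002765 and stood apart, with germ cell markers of the testis at a summed 98971 FPKM and epididymis markers at 20823 FPKM, so fat results are given without it and with it. Of the other fat libraries, ND 3 and HFD 1 held germ cell markers at 2980 and 2061 FPKM, and HFD 2 held epididymis markers at 1276 FPKM. All 8 hepatocyte markers were above 10 FPKM in liver, except that Alb was listed at 0 in liver HFD 3, and all 8 adipocyte markers were so in 8 fat libraries. Muscle markers summed to 38.7 FPKM in liver GT 3 and to 96.4 and 20.3 FPKM in liver HFD 2 and HFD 3, and to 0.334 to 3.20 FPKM in the other 6 liver libraries. Adipocyte markers summed to 185 to 296 FPKM in GT, 214 to 312 in HFD and 43.7 to 72.8 in ND livers, while Adipoq itself was listed at 0 in 6 liver libraries and reached at most 1.40 FPKM. Of the 8 hepatocyte markers, 2 fell in GT against HFD livers, 1 fell in GT against ND livers, and 2 rose and 2 fell in HFD against ND livers. Of 5 macrophage markers tested in liver, 3 fell in GT against HFD and none was called in either comparison with ND. The part of these markers in the liver values was not tested. Among all genes tested in liver, 1.14% were called up and 4.22% down in GT against HFD, and 1.27% and 1.33% in GT against ND. In HFD against ND the shares were 11.9% up and 6.67% down.

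In liver every one of the 10 genes was at or above 1 FPKM in all 9 libraries, between 5.77 and 1254 FPKM, and all 10 passed the filter of at least 1 FPKM in 3 libraries. Ces3a and Ces1c were the most abundant. Ces3a averaged 1118 ± 131 FPKM in GT, 825 ± 101 in HFD and 947 ± 33.1 in ND livers (SD, n = 3 each). Ces1c averaged 1023 ± 114, 1030 ± 29.0 and 946 ± 47.9 FPKM in GT, HFD and ND livers. The ranges of the pair overlapped in GT and ND, while in HFD Ces1c lay above Ces3a. Ces1d and Ces1f came next in HFD and ND, and in GT the ranges of Ces1d, Ces3b and Ces1f overlapped from one to the next. Ces3b lay between Ces1f and Ces2a in ND, and in HFD, at 75.6 to 123 FPKM, it overlapped Ces1g. Ces1g, Ces1e and Ces2a filled a middle level between 34.7 and 130 FPKM. Within each diet Ces1b and Ces2c were lowest, with overlapping ranges.

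**Figure D1:**
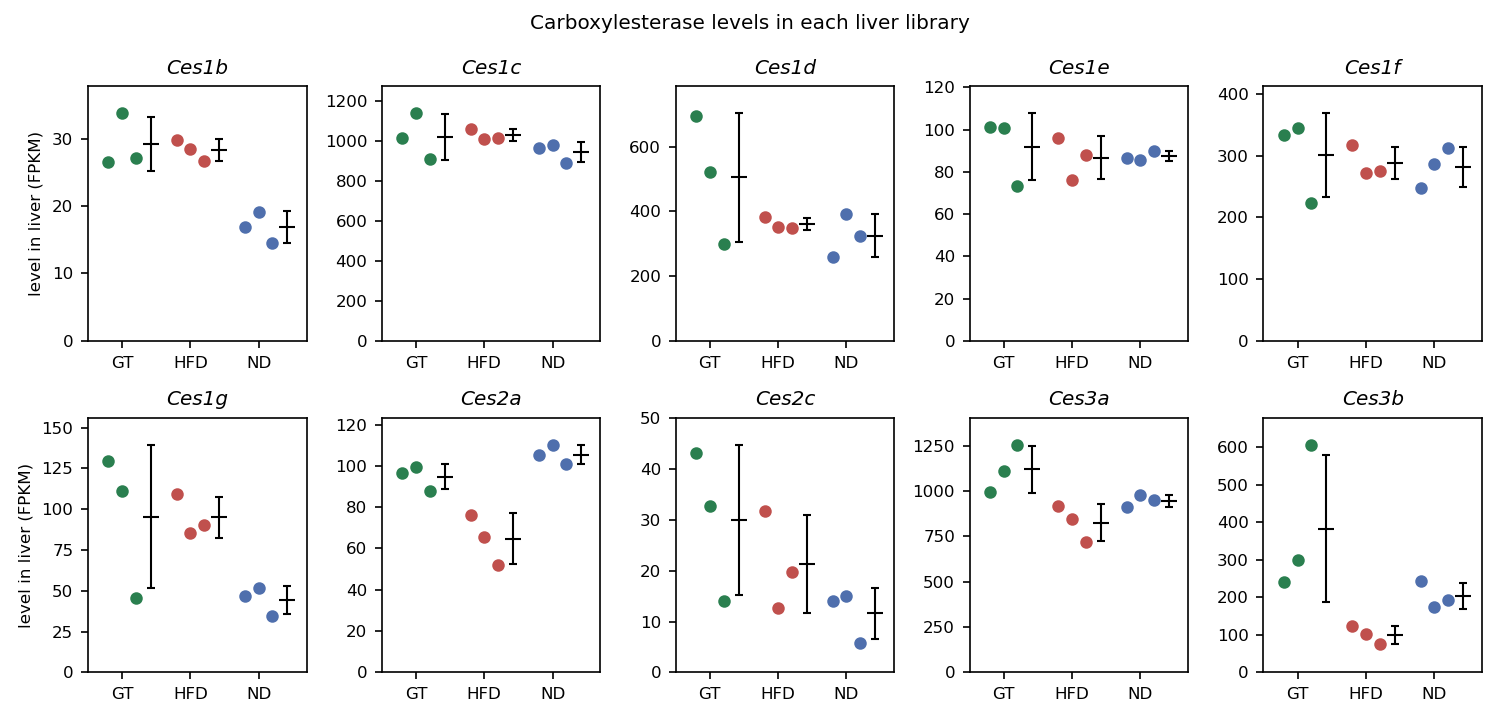
Level of each carboxylesterase in FPKM (y axis, from 0) in each liver library of the GT, HFD and ND diets (x axis); points are libraries, and the bar beside them is the mean ± SD of 3. Ces3b is lowest in HFD (75.6 to 123 FPKM), Ces1b and Ces1g are lowest in ND apart from GT 3 for Ces1g, and GT 3 is the point that lies apart in the GT groups of Ces1d, Ces1g, Ces2c and Ces3b.

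Diet comparisons used limma on log2(FPKM + 1) over all genes kept by the filter, with Benjamini-Hochberg adjusted p under 0.05 as the call, and changes are on that scale. In HFD against ND livers, 4 of the 10 genes were called: Ces1b and Ces1g rose, and Ces2a and Ces3b fell. Among all 10670 genes tested, 11.9% were called up and 6.67% down. In GT against HFD livers, Ces3b rose and was the 1 gene called, against 1.14% of all genes up and 4.22% down. In GT against ND livers, Ces1b rose and was the 1 gene called, against 1.27% up and 1.33% down. The median change of the 10 genes was 0.08, 0.24 and 0.40 in those 3 comparisons, and that of all genes was -0.02, -0.04 and -0.05. GT and ND are each compared with HFD, so these comparisons share libraries.

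**Figure D2:**
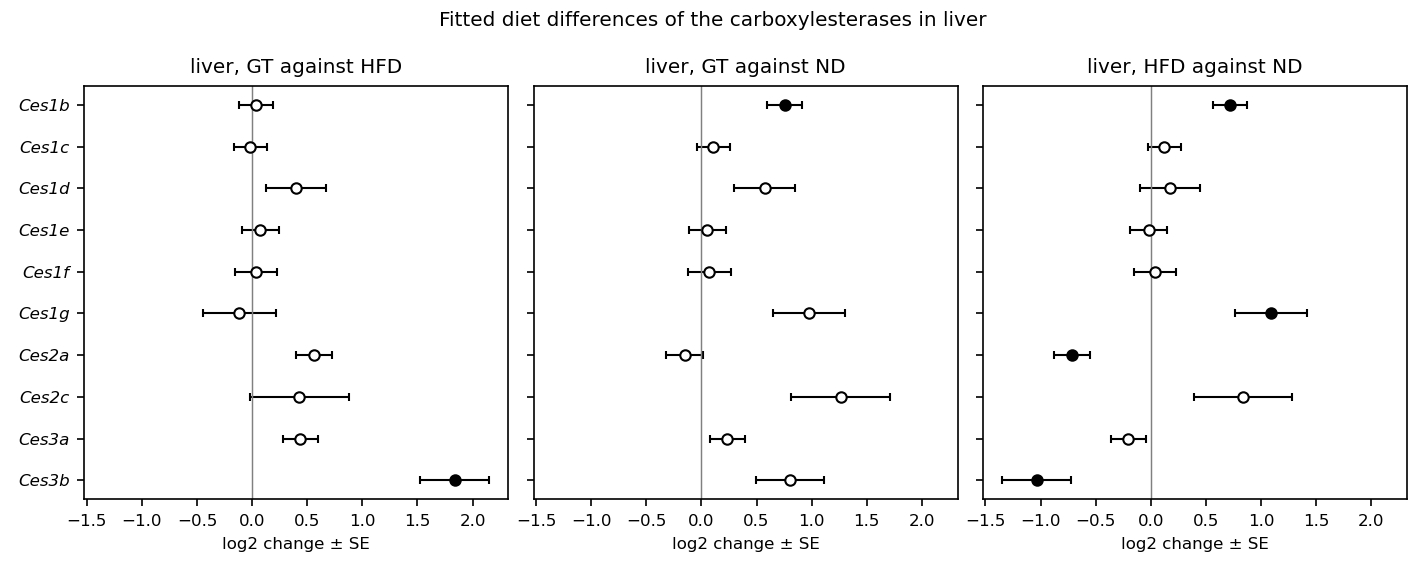
Fitted log2 change ± SE in liver (x axis) of each carboxylesterase (y axis) for GT against HFD, GT against ND and HFD against ND; filled points had a limma adjusted p under 0.05. Filled points are Ces3b in GT against HFD (1.84), Ces1b in GT against ND (0.76), and Ces1b, Ces1g, Ces2a and Ces3b in HFD against ND.

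Of the Ces1 genes that act on stored lipid, Ces1g alone was called in liver. Ces1g, whose loss in mice is known to raise liver fat, had 130, 111 and 45.8 FPKM in GT livers, 109, 85.5 and 90.4 in HFD livers and 47.0, 51.6 and 34.7 in ND livers. All 3 HFD libraries lay above all 3 ND libraries, and GT 3 alone of the GT libraries lay inside the ND range. It rose in HFD against ND by 1.09 ± 0.33 (SE), 2.13-fold (limma adjusted p = 0.0414). The GT minus ND difference was 0.98 ± 0.33 (limma adjusted p = 0.159), and GT minus HFD was -0.12 ± 0.33 (limma adjusted p = 0.868). Without liver GT 3, GT minus ND was 1.43 and was called (limma adjusted p = 0.00407).

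Ces1d, the triacylglycerol hydrolase, had 694, 521 and 299 FPKM in GT livers, 381, 353 and 350 in HFD livers and 259, 391 and 325 in ND livers. GT 1 and GT 2 lay above every other liver library, while GT 3 lay among the ND values. No liver comparison of Ces1d was called: HFD minus ND was 0.17 ± 0.27, GT minus HFD 0.40 ± 0.27 and GT minus ND 0.57 ± 0.27 (limma adjusted p = 0.686, 0.407 and 0.328). Without liver GT 3, GT minus HFD was 0.74 (limma adjusted p = 0.0358) and GT minus ND was 0.91 (limma adjusted p = 0.0273), so 1 library decides both. Ces1f, a second triacylglycerol hydrolase of liver, had 334, 346 and 223 FPKM in GT livers, 318, 273 and 275 in HFD livers and 247, 286 and 312 in ND livers. All 3 groups overlapped, and its fitted differences were 0.04, 0.04 and 0.07 with an SE of 0.19.

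Among the remaining Ces1 genes, Ces1b was the gene called both in HFD and in GT against ND. It had 26.6, 33.7 and 27.1 FPKM in GT livers, 29.8, 28.4 and 26.6 in HFD livers and 16.9, 19.2 and 14.5 in ND livers. The GT and HFD libraries overlapped, and all 6 lay above the ND libraries. It rose by 0.72 ± 0.16 in HFD against ND (limma adjusted p = 0.0129) and by 0.76 ± 0.16 in GT against ND (limma adjusted p = 0.0316), and GT minus HFD was 0.03 ± 0.16.

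Ces1c, the esterase secreted into mouse plasma, had 1017, 1140 and 912 FPKM in GT livers, 1064, 1013 and 1014 in HFD livers and 965, 982 and 892 in ND livers. The HFD libraries lay above the ND libraries, but the difference of 0.12 ± 0.15 was not called (limma adjusted p = 0.585). The level of Ces1c over that of Ces1b, which share transcript windows and the promoter run above, was 38.2, 33.8 and 33.6 in GT livers, 35.7, 35.6 and 38.1 in HFD livers and 57.0, 51.2 and 61.6 in ND livers, so the ratio in ND lay above that on both high-fat diets. Ces1e, or egasyn, which holds beta-glucuronidase in the endoplasmic reticulum, had 101, 101 and 73.5 FPKM in GT livers, 96.0, 76.1 and 88.1 in HFD livers and 86.7, 85.8 and 90.0 in ND livers. Its groups overlapped, and its fitted differences lay between -0.02 and 0.07 with an SE of 0.17.

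Of the Ces2 genes, Ces2a fell in HFD against ND. Ces2a, a hydrolase of acylglycerols and drugs of mouse liver, had 96.7, 99.7 and 88.0 FPKM in GT livers, 76.4, 65.7 and 51.8 in HFD livers and 105, 110 and 101 in ND livers. No group overlapped another: HFD was lowest, GT lay between and ND was highest. The fall was 0.71 ± 0.16 on the log2 scale, 1.64-fold (limma adjusted p = 0.0160). GT minus HFD was 0.56 ± 0.16 and was not called (limma adjusted p = 0.0724), except without liver GT 3, where it was 0.61 (limma adjusted p = 0.0388). GT minus ND was -0.15 ± 0.16 (limma adjusted p = 0.680).

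Ces2c, the acylcarnitine hydrolase of mouse liver, had 43.1, 32.7 and 14.1 FPKM in GT livers, 31.7, 12.7 and 19.7 in HFD livers and 14.0, 15.1 and 5.77 in ND livers. ND 3 was lowest of all, and every pair of groups overlapped. Its differences had the largest errors of the 10 genes, 0.83 ± 0.45 for HFD minus ND, 0.43 ± 0.45 for GT minus HFD and 1.26 ± 0.45 for GT minus ND, and none was called (limma adjusted p = 0.206, 0.609 and 0.181).

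Of the Ces3 pair, neighbouring genes abundant in liver, Ces3b was called in both comparisons with HFD livers. Ces3b had 242, 299 and 607 FPKM in GT livers, 123, 101 and 75.6 in HFD livers and 243, 175 and 194 in ND livers. HFD lay below both other groups, GT and ND overlapped, and GT 3 was highest of all. Ces3b fell in HFD against ND by 1.04 ± 0.31 on the log2 scale, 2.05-fold (limma adjusted p = 0.0410), and rose in GT against HFD by 1.84 ± 0.31, 3.58-fold (limma adjusted p = 0.0144). GT minus ND was 0.80 ± 0.31 (limma adjusted p = 0.222). Without liver HFD 2 or HFD 3 the GT against HFD call ended (limma adjusted p = 0.0714 and 0.0570), with changes between 1.65 and 1.86. Without liver GT 3 Ces3b stayed called, but its change was 1.45, the smallest of all alternative fits.

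Ces3a had 991, 1109 and 1254 FPKM in GT livers, 916, 844 and 716 in HFD livers and 912, 978 and 950 in ND livers. Every GT library lay above every HFD and ND library, and HFD and ND overlapped. Its differences were 0.44 ± 0.16 for GT minus HFD, 0.23 ± 0.16 for GT minus ND and -0.20 ± 0.16 for HFD minus ND, none called (limma adjusted p = 0.131, 0.500 and 0.389). The level of Ces3a over that of Ces3b was 4.10, 3.70 and 2.07 in GT livers, 7.45, 8.33 and 9.47 in HFD livers and 3.74, 5.60 and 4.90 in ND livers. HFD was above the other 2 groups in this ratio, which can depend on how any reads common to the pair were divided.

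The 4 calls in HFD against ND livers each depended on single libraries. The call ended for Ces1b without liver ND 1, ND 3 or HFD 2 (limma adjusted p = 0.0544 to 0.0648), for Ces1g without any 1 of the 6 HFD and ND libraries (0.0555 to 0.153), for Ces2a without ND 1, ND 3, HFD 2 or HFD 3 (0.0501 to 0.0651) and for Ces3b without any of these 4 libraries or ND 2 (0.0556 to 0.150). The Ces1b call in GT against ND ended without any of 7 libraries (0.0542 to 0.137), all but ND 2 and GT 3. Scaling every library to an equal FPKM total moved the median of all genes by -0.18 in HFD against ND and by 0.13 in GT against HFD. It changed the genes called in HFD against ND to 613 up and 860 down, against 1268 up and 712 down as deposited, and those in GT against HFD to 68 up and 140 down, against 122 and 450. It left 69 up and 73 down in GT against ND livers, against 135 and 142. On that scale Ces1b and Ces1g were no longer called in HFD against ND, at 0.51 and 0.88 (limma adjusted p = 0.0927 and 0.127), nor Ces1b in GT against ND, at 0.69 (limma adjusted p = 0.118). Ces2a and Ces3b stayed called in HFD against ND, at -0.93 and -1.25, and Ces3b in GT against HFD, at 1.99.

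Summed over the 10 genes, the liver level was 3676, 3793 and 3542 FPKM in GT, 3145, 2852 and 2707 in HFD and 2896, 3093 and 2919 in ND libraries. All GT libraries lay above the rest, and HFD and ND overlapped. As a share of all FPKM the sum was 0.48% ± 0.08 in GT, 0.34% ± 0.04 in HFD and 0.40% ± 0.01 in ND livers (SD, n = 3 each). On this share GT and ND overlapped, with GT 3 (0.402%) inside the ND range of 0.391% to 0.412%. HFD, at 0.307% to 0.384%, lay below both. Ces3b made up 10.5% ± 5.75 of the sum in GT, 3.42% ± 0.57 in HFD and 6.90% ± 1.40 in ND livers. Within GT, library 3 was the lowest of 3 for 7 of the 10 genes and the highest for Ces3a and Ces3b, and it is 1 of the 3 liver libraries with muscle markers; the part of this in the results was not tested.

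**Figure D3:**
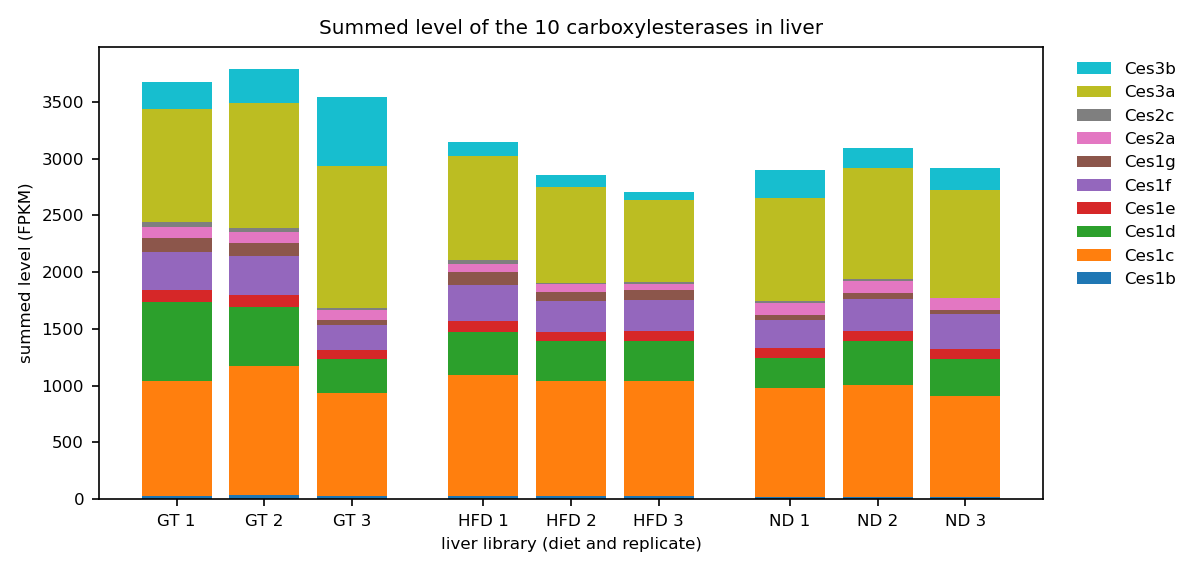
Summed level of the 10 carboxylesterases in FPKM (y axis) in each liver library (x axis), with each gene's part as a coloured segment of the bar. The GT bars reach 3542 to 3793 FPKM, above the HFD and ND bars, and Ces3b (top segment) is thickest in GT 3.

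Across the 9 liver libraries the members fell apart in how they varied. Pearson's r of log2(FPKM + 1) was 0.94 between Ces3a and Ces3b and 0.89 between Ces1g and Ces2c. It was 0.87 between Ces1e and Ces1f and 0.85 between Ces1c and Ces1g. The lowest values were -0.46 between Ces1b and Ces2a, -0.39 between Ces1g and Ces2a and -0.33 between Ces1g and Ces3b. These points share library and diet, and the Ces3 pair shares transcript windows and may share reads, so they are a description. Of 10578 genes outside the family, the 3 with the most similar pattern over the 9 libraries were taken for each member. For Ces1b they were Tmed10 (r = 0.96), Gm13775 (0.96) and Cebpe (0.95), and for Ces1c D030056L22Rik (0.93), Tmem28 (0.91) and Nudt16 (0.91). For Ces1d they were Psmb8 (0.94), Slco2b1 (0.94) and Dym (0.93), and for Ces1e Ugt2b34 (0.98), Cdh2 (0.98) and Colec12 (0.96). Ces1f was most like Gna11 (0.96), Dnpep (0.94) and Ift52 (0.93), and Ces1g most like Pgrmc1 (0.98), Themis (0.97) and Tmem28 (0.97), so that Tmem28 was listed for both Ces1c and Ces1g. Those of Ces2a were Cyp4a12b (0.98), Ahcy (0.96) and C8b (0.95), and those of Ces2c, the least alike, Gulo (0.90), Cenpw (0.87) and Trmt10a (0.87). Ces3a was most like Irf5 (0.97), Ttc39c (0.96) and Aspscr1 (0.96), and Ces3b most like Slc22a7 (0.95), Mup18 (0.95) and Mocs1 (0.93).

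In epididymal fat only Ces1d and Ces1f were at or above 1 FPKM in all 9 libraries, and only these 2 passed the filter. For the other 8 genes, 23 of 72 values were listed at 0, the highest was 2.26 FPKM (Ces1e in HFD 2), and 2 values reached 1 FPKM. Ces1d had 246, 455 and 650 FPKM in GT fat, 202, 276 and 200.5 in HFD fat and 96.6, 1542 and 1113 in ND fat, with ND 1 the lowest. Apart from ND 1, ND lay above both other groups, and GT and HFD overlapped. Ces1f had 14.3, 21.4 and 31.9 FPKM in GT fat, 12.1, 16.5 and 16.3 in HFD fat and 6.91, 68.2 and 51.0 in ND fat, in the same order. The level of Ces1d in ND fat other than ND 1 exceeded that in every liver library, and Ces1f was lower in every fat library than in every liver library.

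With all 9 fat libraries neither gene was called: HFD minus ND was -1.30 ± 0.97 for Ces1d and -0.95 ± 0.76 for Ces1f. Of 13762 genes tested, 5.28% were called up and 0.371% down in HFD against ND, 0% in each direction in GT against HFD (467 genes had an unadjusted limma p under 0.05), and 0.61% up and 0.0291% down in GT against ND. Without fat ND 1, Ces1d fell in HFD against ND by 2.55 ± 0.38 on the log2 scale, 5.84-fold (limma adjusted p = 0.00296), and Ces1f fell by 1.92 ± 0.31, 3.78-fold (limma adjusted p = 0.00353). In GT against ND Ces1d fell by 1.65 ± 0.38 (limma adjusted p = 0.0352) and Ces1f by 1.42 ± 0.31 (limma adjusted p = 0.0270). Of the 12859 genes tested without fat ND 1, 17.8% were called up and 9.62% down in HFD against ND, and 7.5% up and 3.16% down in GT against ND. Scaled to equal totals, the genes called in GT against ND were 999 up and 216 down, against 964 and 406 as deposited, and those in GT against HFD were 48 up and 42 down, against 115 and 103. The GT against ND calls of both genes ended with no filter on low values (limma adjusted p = 0.0721 for Ces1d and 0.0620 for Ces1f) and with only those 2 diets in the fit (limma adjusted p = 0.107 and 0.0924).

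GT minus HFD in fat was 0.90 ± 0.34 for Ces1d and 0.50 ± 0.27 for Ces1f, neither called (limma adjusted p = 0.181 and 0.321), against 0.894% of all genes up and 0.801% down. Without fat GT 1 Ces1d was 1.28 and called (limma adjusted p = 0.0471). The HFD against ND calls of both genes held in each fit that left out 1 HFD or GT fat library. Without ND 2 or ND 3 only 1 ND library is left. Over all alternative fits without ND 1 the change stayed between -2.78 and -2.31 for Ces1d and between -2.13 and -1.71 for Ces1f. Each fit kept other libraries with testis or epididymis markers, and the part of such tissue was not tested. The GT against ND call ended for Ces1d without fat ND 2, ND 3, HFD 2, HFD 3 or GT 2 (limma adjusted p = 0.0520 to 0.101) and for Ces1f without ND 2, HFD 3, GT 1 or GT 2 (0.0513 to 0.0940).

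Markers of both adipocytes and macrophages moved with diet in the same fat libraries. In HFD against ND without fat ND 1, 6 of 8 adipocyte markers fell and 1 rose, and all 8 macrophage markers rose, where 17.8% of all genes rose and 9.62% fell. In GT against HFD 3 adipocyte markers rose and no macrophage marker was called, and in GT against ND 1 adipocyte marker rose, 1 fell and 7 macrophage markers rose. The background was 0.894% of all genes up and 0.801% down in GT against HFD, and 7.5% up and 3.16% down in GT against ND. Summed adipocyte markers were 24545 to 28416 FPKM in GT, 16959 to 19479 in HFD and 23987 to 35812 in ND fat other than ND 1, which had 7218. Summed macrophage markers were 1357 to 3326 FPKM in GT, 3695 to 5226 in HFD and 414 to 531 in ND fat other than ND 1. The part of these markers in the values of Ces1d and Ces1f was not tested. In such bulk tissue, fewer cells of a type and less RNA per cell cannot be told apart.

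Set against the adipocyte gene Adipoq in the same library, Ces1d was at 195, 261 and 305 FPKM per 1000 FPKM of Adipoq in GT fat, 197, 266 and 221 in HFD fat and 478, 554 and 609 in ND fat. On this ratio ND 1 (478) lay with the other ND libraries, GT and HFD overlapped, and both lay below ND, 2.18-fold lower for GT and 2.41-fold lower for HFD (from the mean log2 ratios). Ces1f was at 11.3, 12.3 and 15.0 per 1000 FPKM of Adipoq in GT fat, 11.8, 16.0 and 17.9 in HFD fat and 34.2, 24.5 and 27.9 in ND fat. GT and HFD again overlapped and both lay below ND, with GT the lower of the pair in mean log2 ratio. HFD also lay below ND for both genes against Plin1 and Fabp4. GT lay below ND as well, except for Ces1d against Fabp4, where the groups overlapped. There Ces1d was at 14.0, 26.0 and 37.4 FPKM per 1000 FPKM of Fabp4 in GT fat and 31.2, 66.2 and 85.5 in ND fat, so that ND 1 lay inside the GT range. A two-sided exact permutation test gave p = 0.1 wherever the groups did not overlap, the smallest p that 3 libraries against 3 allow (0.164 after Benjamini-Hochberg adjustment over the 18 ratio comparisons), and 0.2 to 0.9 elsewhere. These ratios were added after the values were seen, and Adipoq, Plin1 and Fabp4 are 3 of the 8 adipocyte markers listed. Cfd was at 337, 349 and 251 FPKM in HFD fat and 3048, 4074 and 3626 in ND fat. Against it both genes lay higher in HFD than in ND. Against Lipe and Retn HFD and ND overlapped, and against Cidec and Lep HFD lay below ND. Lep itself was higher in HFD fat, at 899, 1196 and 1186 FPKM, than in ND fat, at 7.97, 323 and 317 FPKM. ND 1 lay apart from ND 2 and ND 3 against Cfd, Lipe, Retn and Lep. It was lower than both against Cfd, Lipe and Retn, and higher than both against Lep. No test was run on these further ratios.

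**Figure D4:**
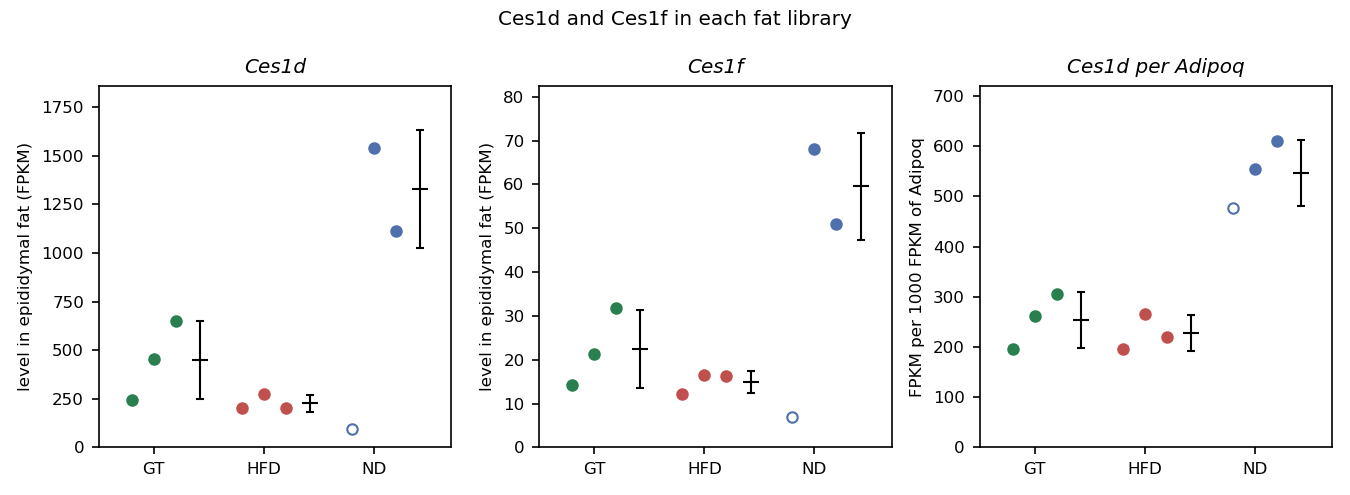
Ces1d and Ces1f in FPKM, and Ces1d in FPKM per 1000 FPKM of Adipoq (y axes, from 0), in each epididymal fat library of the GT, HFD and ND diets (x axes); open circles are fat ND 1, and bars are the mean ± SD, without ND 1 in the first 2 panels and with it in the last. ND 1 is lowest for both genes in FPKM (96.6 for Ces1d) but lies with ND 2 and ND 3 when Ces1d is set against Adipoq (478 against 554 and 609). Against Cfd, Lipe, Retn and Lep, not drawn here, ND 1 lay apart from them.

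The diet difference of Ces1d and Ces1f was tested between tissues as the fat change minus the liver change, without fat ND 1. For HFD against ND it was -2.72 ± 0.48 for Ces1d and -1.96 ± 0.36 for Ces1f, both called (limma adjusted p = 0.000851 and 0.00120). Of 9957 genes tested, 11.9% were called up and 9.69% down. With all 18 libraries it was -1.47 ± 1.04 for Ces1d and -0.98 ± 0.80 for Ces1f, neither called (limma adjusted p = 0.344 and 0.408). The labels do not say whether fat and liver libraries of the same number came from 1 mouse, and the test treated all libraries as independent. For GT against HFD the difference was 0.50 ± 0.45 for Ces1d and 0.46 ± 0.34 for Ces1f (limma adjusted p = 0.536 and 0.427), against 2.78% of all genes up and 1.09% down. The genes most similar to Ces1d over 8 fat libraries were Gsta3 (r = 0.99), Adhfe1 (0.99) and Negr1 (0.99), and those to Ces1f were Pxdc1 (0.99), Gphn (0.99) and Scn7a (0.99).

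The 9 carboxylesterase genes outside the list were mostly near 0. Ces2e was the most abundant of them in liver, with 107, 99.6 and 40.8 FPKM in GT, 113, 69.1 and 90.1 in HFD and 65.6, 94.1 and 72.1 in ND livers, and its groups overlapped. Ces2g had 11.5 to 16.9 FPKM in GT, 13.2 to 16.3 in HFD and 12.2 to 13.2 in ND livers. In fat Ces2g had 3.22, 3.48 and 2.64 FPKM in GT, 5.08, 5.33 and 5.52 in HFD and 0.33, 2.36 and 3.21 in ND libraries, so HFD lay above both other groups. Without fat ND 1 it rose in HFD against ND by 0.75 ± 0.17 (limma adjusted p = 0.0142), opposite in direction to Ces1d and Ces1f, and GT minus HFD was -0.62 ± 0.15 (limma adjusted p = 0.0770). Ces4a, the neighbour of Ces3b, had 0.82, 1.01 and 2.38 FPKM in GT, 0.44, 0.31 and 0.18 in HFD and 0.65, 0.50 and 1.05 in ND livers, and GT minus HFD was 0.83 ± 0.22 (limma adjusted p = 0.0581). Ces5a, a gene of the epididymis, was at 205 FPKM in fat HFD 2 and 195 FPKM in fat ND 1 and at 0.279 FPKM or less in the other fat libraries. Ces1a, Ces1h, Ces2b, Ces2f and Ces2h stayed at or below 1.97 FPKM in all 18 libraries.

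Genes with related tasks were read from 4 lists. Of 16 nuclear receptors and factors listed as regulators of carboxylesterase genes, 5 rose and 0 fell in HFD against ND livers. Of all genes, 11.9% rose and 6.67% fell as deposited. The list was not recounted with equal FPKM totals, where 613 of all genes were called up and 860 down. Among the 5 were Cebpb (1.73 ± 0.17), Pparg (1.21 ± 0.20), Srebf1 (0.88 ± 0.22) and Cebpa (0.55 ± 0.16), the first 3 of which act in stress signalling, lipid storage and fatty acid synthesis. Cebpb fell by 1.25 ± 0.17 in GT against HFD livers (limma adjusted p = 0.00712), and the xenobiotic receptor gene Nr1i3 was at 0.55 ± 0.21 (limma adjusted p = 0.147). In GT against ND livers Srebf1 and Pparg rose, 2 of 16. Of 16 neutral lipid hydrolases and regulators, G0s2, an inhibitor of adipose triglyceride lipase, rose in HFD against ND livers (0.93 ± 0.28) and Lpl, lipoprotein lipase, fell in GT against HFD livers by 0.97 ± 0.19, with none called in GT against ND. Of 15 other esterases and hydrolases, Esd and Ephx1 rose and Ephx2 fell in HFD against ND livers, and none was called in the GT comparisons. Of 10 VLDL genes, Apoc3 and Cideb rose in HFD against ND livers, Apoa4 fell in GT against HFD livers, and Pdia3, a protein-folding enzyme, rose in GT against ND livers. The liver background was 1.14% of all genes up and 4.22% down in GT against HFD, and 1.27% up and 1.33% down in GT against ND.

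In fat without ND 1, the lipid hydrolases split in HFD against ND: 3 rose and 8 fell of 16, where 17.8% of all genes rose and 9.62% fell. Lipa (3.51 ± 0.32) and Nceh1 (3.89 ± 0.45), the lysosomal acid lipase and a cholesteryl ester hydrolase of macrophages, rose, while Plin1 and Lipe, hormone-sensitive lipase, fell by 1.06 ± 0.19 and 0.88 ± 0.16, as Ces1d and Ces1f did. In GT against HFD fat Lipe (0.92 ± 0.14) and Plin1 (0.97 ± 0.17) rose, 2 of 16 (limma adjusted p = 0.0413 and 0.0463), where 0.894% of all genes rose and 0.801% fell. In GT against ND fat 3 rose and 1 fell of 16, where 7.5% of all genes rose and 3.16% fell. Of 13 other esterases, 4 rose and 4 fell in HFD against ND, among them Gusb (2.79 ± 0.22), the beta-glucuronidase that egasyn binds, and Nceh1, which is on both lists. In this list 1 rose in GT against HFD, and 3 rose and 1 fell in GT against ND. Of 10 regulators Nfe2l2 and Cebpb rose in HFD against ND and none was called in the GT comparisons. Of 7 VLDL genes, 2 rose and 1 fell in HFD against ND, none was called in GT against HFD, and 1 rose and 1 fell in GT against ND.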

How the data were processed

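Epididymal fat and liver RNA of 3 diets was sequenced as 3 polyA libraries per tissue and diet (18 in all) from Illumina TruSeq kits, per the labels. The deposited table holds FPKM per Ensembl gene, and the submitters' processing notes name CASAVA 1.8.2, STAR 2.4.0 and Cufflinks 2.1.1; genome build and annotation are not given in the sources used here. The table gives no read counts, so depth is unknown apart from an estimate from the steps of low FPKM values, 10.9 M fragments for fat ND 1 and 12.6 to 20.4 M for the other libraries.

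Of 23474 gene IDs, 22671 were matched to a symbol. The 10 carboxylesterases, the gene lists and the markers were chosen with earlier results of these data known. Genes named besides them are every other Ces gene, up to 4 genes of smallest p per list and comparison, and the 3 genes of highest Pearson's r per member.

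FPKM values as deposited by the authors were filtered (at least 1 FPKM in 3 libraries), put on log2(FPKM + 1) and fitted per tissue with limma 3.58.1 (trend, robust; R 4.3.3), after tests on simulated data, with Benjamini-Hochberg adjustment over all genes at 0.05. A fold change on this scale understates low genes. Fat was fitted with 9 libraries and without fat ND 1, and the tissue difference (fat change minus liver change) over 17 libraries. Ratios used SciPy 1.17.1. Alternatives were a pseudocount of 0.1, a filter at 5 FPKM, no filter at all, libraries scaled to equal FPKM totals, the replicate number as a block, only the compared diets, and leaving out each library. Shared windows came from GENCODE M21 transcripts and promoters from RefSeq (GRCm38.p6). Coordinates of genes are not given because the files' build is not stated.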

Additional observations from a re-analysis of the deposited data

Results flagged for a closer look

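The diet difference of Ces1d and of Ces1f was unlike in the 2 tissues, by a direct test of the fat change minus the liver change. For HFD against ND, without fat ND 1, it was -2.72 ± 0.48 for Ces1d and -1.96 ± 0.36 for Ces1f on the log2 scale (limma adjusted p = 0.000851 and 0.00120). Both genes were lower in each HFD fat library than in fat ND 2 and ND 3, while HFD and ND overlapped in liver. Fat ND 1 itself, at 96.6 FPKM of Ces1d and 6.91 FPKM of Ces1f, lay below every HFD fat library. With all 18 libraries the difference was -1.47 ± 1.04 for Ces1d and -0.98 ± 0.80 for Ces1f and was not called (limma adjusted p = 0.344 and 0.408). Adipocyte and macrophage markers moved with diet in the same fat libraries, and their part in this difference was not tested.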

How the results depend on the processing

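No called result turned its direction under an alternative. In HFD against ND livers 4 members were called; 2 were called with no filter (Ces1b and Ces2a) and 2 with equal FPKM totals. In GT against ND livers 1 was called, and 0 with no filter, equal FPKM totals, the replicate block or only the 2 compared diets. In GT against ND fat without ND 1, 2 were called, and 0 with no filter, the replicate block or only the 2 compared diets. For the tissue difference in HFD against ND, 2 were called, 0 with all 18 libraries and 4 of 10 tested with no filter, which also gave 1 for GT against HFD, where 0 were called. The 8 genes added by no filter had 23 of 72 fat values at 0 and 2 at 1 FPKM or more. For them the difference is close to the liver change with its sign turned, so these counts tell nothing of fat. The share of all genes called with no filter is not given here. Leaving out 1 library at a time gave 0 to 4 members called in HFD against ND livers, 0 to 3 in GT against HFD, 0 to 3 in GT against ND; with 9 fat libraries 0 to 2, 0 to 0 and 0 to 2; without fat ND 1, 2 to 2, 0 to 1 and 0 to 2; and for the tissue difference 2 to 2 and 0 to 0. The cause of each move was not tested. Groups share replicate numbers, but same-numbered libraries did not all deviate together (r from -0.30 to 0.42 in liver, 4 of 9 pairs over 0.1; -0.07 to 0.64 in 9 fat libraries, 6 of 9; -0.62 to 0.32 in fat without ND 1, 3 of 7, where the 2 ND deviations mirror each other; -0.24 to 0.28 between fat and liver of 1 diet, 2 of 9), so the numbers were not taken to pair libraries. Of pairs with different numbers, 7 of 18 were over 0.1 in liver and 5 of 18 in 9 fat libraries. In fat without ND 1 it was 5 of 14, and between fat and liver of 1 diet 6 of 18. The same-numbered share was larger in the 9 fat libraries and, by less, in liver and in fat without ND 1. It was smaller between fat and liver of 1 diet. Pairing is therefore not settled within either tissue. With the replicate block 3 members were called in HFD against ND livers, where Ces3b was not (limma adjusted p = 0.0721). It gave -1.42 for Ces1d and -1.21 for Ces1f in GT against ND fat without ND 1 (limma adjusted p = 0.0850 and 0.0628). A library alone in its group after a leave-out, as in ND fat without ND 1, is assumed to vary like the others. FPKM gives no counts, so low values in fat carry no counting interval.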
